A study of Mus musculus with 2 samples.

Results

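Imprinted genes are expressed mainly from the copy inherited from 1 parent, and this account covers 34 of them among the 45578 genes of a table of ribosome footprints from neonatal mouse brain. The members were chosen as a list of gene symbols, not by their values, and were then arranged by imprinted cluster and divided into 28 coding genes and 6 non-coding genes. All 34 symbols were found in the table, on 209 annotated transcripts.

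The footprints came from polysomes, the messenger RNAs that carry several ribosomes, which were isolated from frozen brains at postnatal day 5. The study held 1 group of 2 control animals, biological replicates 1 and 2, with the genotype Smn+/-; SMN2tg/0 on the FVB strain. Each animal therefore had a single working copy of mouse Smn and a human SMN2 transgene, and no animal without these alleles is analysed here. The libraries held 1866831 footprints in replicate 1 and 5261878 in replicate 2, so replicate 2 gives the tighter counting error. Values are levels in CPM, a gene's count per 1000000 footprints of its library, written for replicate 1 and then replicate 2, with the mean ± SD over n = 2. An SD over a pair of libraries is itself poorly known, and intervals are Clopper-Pearson 95% intervals that cover counting error only.

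Imprinting is set by DNA methylation laid down differently in egg and sperm at control regions, each of which can govern a cluster of neighbouring genes. Clusters often pair protein-coding genes with long non-coding RNAs read from the opposite parental copy. In brain and placenta these genes are known for roles in fetal growth, feeding, hormone signalling and maternal care, and loss of the paternal or the maternal copy of the Prader-Willi/Angelman region causes human disease. Footprints here were not assigned to parental copies, so the values are totals over both. A footprint level also joins the amount of an mRNA with the ribosomes on it, and in whole brain fewer cells of a type and less RNA per cell cannot be told apart.

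The promoters of the members with the densest footprints, and of the pair that shares a start region, are shown first because later results return to these genes. They are RefSeq windows of 250 bases before to 50 bases after the transcript start, on build GRCm38.p6, and 27 of the 34 members had at least 1 window. Capitals mark TGCCGC or its reverse complement, the core letters bound by the imprint-keeping protein ZFP57. The Nnat window lies at chr2:157559828-157560127 on the plus strand, the Ndn window at chr7:62348027-62348326 on the plus strand and the Usp29 window at chr7:6730333-6730632 on the plus strand.
Nnat: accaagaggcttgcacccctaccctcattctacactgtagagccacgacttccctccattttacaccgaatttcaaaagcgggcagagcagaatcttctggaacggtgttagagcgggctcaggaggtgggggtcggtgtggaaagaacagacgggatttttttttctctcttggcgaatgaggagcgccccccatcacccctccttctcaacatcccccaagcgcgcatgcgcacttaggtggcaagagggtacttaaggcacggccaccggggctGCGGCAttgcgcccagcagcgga
Ndn: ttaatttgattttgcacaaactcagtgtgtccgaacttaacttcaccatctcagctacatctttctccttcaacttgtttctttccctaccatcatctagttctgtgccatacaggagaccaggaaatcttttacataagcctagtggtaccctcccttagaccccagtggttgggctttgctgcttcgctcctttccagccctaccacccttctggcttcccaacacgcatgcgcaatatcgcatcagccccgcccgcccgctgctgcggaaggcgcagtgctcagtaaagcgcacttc
Usp29: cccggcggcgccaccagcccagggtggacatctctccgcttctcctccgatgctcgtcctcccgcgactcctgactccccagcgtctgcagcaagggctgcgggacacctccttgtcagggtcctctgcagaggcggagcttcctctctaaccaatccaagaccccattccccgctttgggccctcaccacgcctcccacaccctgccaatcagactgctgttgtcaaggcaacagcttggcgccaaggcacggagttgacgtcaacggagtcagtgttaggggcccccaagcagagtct

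The Peg3 window, at chr7:6730370-6730669 on the minus strand, shares 263 bases with the Usp29 window, so these genes start from opposite strands of nearly the same stretch. Over the 36 windows of the members the median number of CpG dinucleotides was 14.5, against 7 over all 32851 windows in the table, and 30 of the 36 were above that median. The letters TGCCGC, searched on both strands, occurred in 11 of the 36 windows (30.6%), which belong to 10 members, against 11.6% of all windows. The 11 include Mest windows that start at 30737800 and 30737803 and are nearly the same sequence. TGCCGC itself contains a CpG, and windows of similar CpG number were not compared. The letters GCCATNTT, the core of the YY1 motif, occurred in 2 windows (5.56%), those of Ube3a and Mkrn3, against 6.05% of all windows. No window of a member held both motifs, and a match is a description of the sequence alone.

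Several imprinted transcripts are also hosts of microRNAs, which matter here because they are short RNAs that ribosomes do not translate. RefSeq places 33 hairpins within the spans of 8 members, and 30 of them were genes of the footprint table. Together those 30 held 16 footprints in replicate 1 and 25 in replicate 2, and most hairpins held none. The mature sequences below are those with the highest hairpin counts or the best-known hosts, with the seed (bases 2 to 8) in capitals.
miR-541-5p: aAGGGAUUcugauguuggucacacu
miR-3099-3p: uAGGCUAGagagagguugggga
miR-433-3p: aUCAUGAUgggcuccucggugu
miR-770-5p: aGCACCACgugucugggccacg
miR-370-3p: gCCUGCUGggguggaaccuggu
miR-335-5p: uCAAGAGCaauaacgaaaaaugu
miR-483-5p: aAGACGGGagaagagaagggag
miR-675-5p: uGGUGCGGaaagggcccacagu
miR-127-3p: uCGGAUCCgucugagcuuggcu
miR-453: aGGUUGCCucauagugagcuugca
miR-496a-5p: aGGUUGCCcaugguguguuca

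The hairpin of miR-541, within Mirg, had 9 and 7 footprints, more than the 1 and 4 counted on Mirg itself. That of miR-3099, within Usp29, had 1 and 7. The miR-433 hairpin, within the span of Rtl1, had 2 and 4. Hairpins of miR-770 within Meg3 and of miR-335 within Mest had 1 and 2 each, and that of miR-370 within Rian had 1 and 1. The miR-483 hairpin within Igf2 had 0 and 1, while those of miR-675 within H19 and of miR-127 within the span of Rtl1 had none. Where nothing was counted, a limit of 3 counts corresponds to 1.61 CPM (replicate 1) or 0.570 CPM (replicate 2); the two-sided interval of a count of 0 is wider and reaches 1.98 CPM in replicate 1. Mirg is the host of both miR-453 and miR-496a-5p, which share the seed GGUUGCC, and neither hairpin had a footprint.

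The 34 genes together held 7513 footprints in replicate 1 and 17760 in replicate 2. Their share of the library was 0.402% (0.393 to 0.412) in replicate 1 and 0.338% (0.333 to 0.343) in replicate 2, a mean of 0.370% ± 0.0459. The share was lower in replicate 2, and the intervals did not overlap. The largest falls in CPM were those of Nnat (1012 and 696) and Ndn (617 and 321), and not every member fell. Coding members supplied nearly all of the members' share, with 0.361% ± 0.0454 of the library, against 0.00857% ± 0.000534 for the non-coding members. Nnat alone supplied 22.9% ± 3.20 of the members' footprints, and Nnat, Ndn and Igf2 together supplied 45.3% ± 7.06. By cluster, Nnat-Blcap on chromosome 2 led with 25.9% ± 3.39 of the members' footprints, ahead of the Prader-Willi/Angelman cluster on chromosome 7 with 18.9% ± 2.50. This order depends on summing transcripts: with the highest transcript of each gene alone, Nnat was at 227 CPM, Ndn was at 904 CPM and the Nnat-Blcap pair held 0.0326% of the library, so Ndn alone was above the pair. The Igf2-H19 pair held 10.01% ± 0.269, the Peg3 cluster 9.40% ± 2.04 and the Mest-Copg2 pair 8.04% ± 1.26. Each of the other clusters held between 1.52% (Zdbf2) and 4.48% (Nap1l5).

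Grouped by the parental copy usually reported as active in the mouse, 20 genes of the father's copy held 0.284% ± 0.0503 of the library and 13 of the mother's copy held 0.0751% ± 0.00331. This grouping is not specific to brain: Igf2 is known to be read from both copies in choroid plexus and meninges, and Igf2r from both in neurons. Grb10, whose active copy depends on the cell type, was left out of this grouping. Among coding members the median level was 66.5 CPM ± 5.41 for the 18 paternal genes and 75.5 CPM ± 21.2 for the 9 maternal genes. The larger paternal total therefore came with similar medians, and Nnat, Ndn and Igf2 are all in the paternal group. From replicate 1 to replicate 2 the paternal share went from 0.320% to 0.249%, and the maternal share from 0.0728% to 0.0775%.

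**Figure D1:**
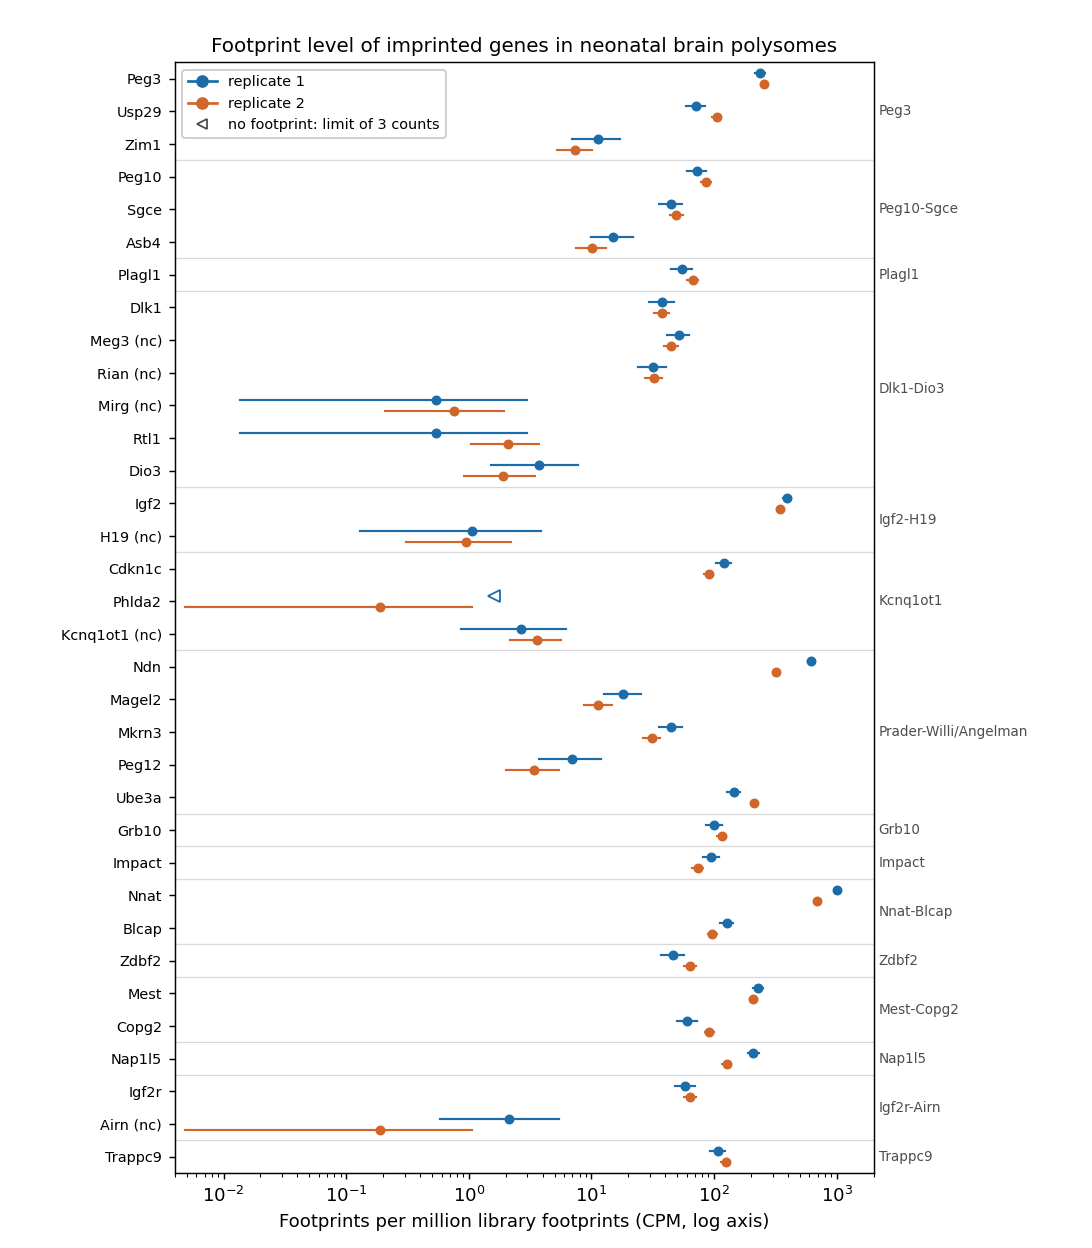
Footprint level of each of the 34 imprinted genes in CPM on a log axis, by cluster (named at the right), with replicate 1 in blue and replicate 2 in orange; bars are Clopper-Pearson 95% intervals and (nc) marks non-coding genes. Levels run from 854 CPM for Nnat down to Phlda2, which had no footprint in replicate 1 and 1 in replicate 2.

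The design has no contrast between conditions, so the test available is of replicate 2 against replicate 1. A two-sided exact binomial test compared the counts of the libraries with the ratio expected from TMM (trimmed mean of M values) library sizes, and p-values were adjusted by Benjamini-Hochberg over the 16427 genes that averaged 10 or more counts. A gene was called at an adjusted p under 0.05. It compares 2 libraries and takes counting noise as the only error. Log2 ratios are replicate 2 over replicate 1. They are 0.13 lower than ratios of plain CPM because of the TMM scaling.

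Of the 34 members, 28 passed the count minimum and 12 of those were called (42.9%), where 17.4% of all tested genes were. In replicate 2, 3 were higher, against 5.95% of all genes, and 9 were lower, against 11.5% of all genes. Deeply counted genes are called more often: where the mean count was 50 or more, 26.8% of genes were called, and so were 12 of the 23 members at that depth. The 3 members higher in replicate 2 were Usp29, Ube3a and Copg2. The 9 lower were Nnat, Ndn, Nap1l5, Igf2, Cdkn1c, Blcap, Mkrn3, Impact and Mest. The median log2 ratio of the 28 was -0.18, against 0.01 over all tested genes, and 18 of the 28 were below 0. With library totals in place of TMM sizes the members' median was -0.06 and 12 were called, 4 higher and 8 lower. Of all genes 19% were then called, 11.5% higher and 7.47% lower. When the spread between the libraries itself was used as the error (edgeR's exact test, biological coefficient of variation 0.167), 0 members were called and 0.067% of all genes were, with 2 members at an unadjusted p under 0.05. A call therefore says that these libraries differed by more than counting noise, and not that the gene varies more than others do.

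Nnat and Blcap formed the leading cluster. Nnat (neuronatin, ENSMUSG00000067786) encodes a small membrane protein of developing neurons and lies wholly within Blcap, on the opposite strand. It had 1889 and 3662 footprints, or 1012 and 696 CPM, with a mean of 854 ± 223. Its level was lower in replicate 2, with a log2 ratio of -0.67, interval -0.75 to -0.59 (adjusted p = 6.02e-54, exact binomial test). Blcap (ENSMUSG00000067787), a small membrane protein first described in bladder cancer, had 236 and 511 footprints, at 126 and 97.1 CPM. It too was lower in replicate 2, with a log2 ratio of -0.50 (-0.73 to -0.28, adjusted p = 0.000227). Per kilobase of transcript, the footprints of Nnat were 16.1 times those of Blcap in replicate 1 and 14.4 times in replicate 2. Both sides are sums over transcripts, 10 for Nnat and 6 for Blcap. Per kilobase of longest coding sequence the ratios were smaller, at 5.42 and 4.85. Their 2448 shared genomic bases make reads in the shared stretch uncertain, because the use of strand in counting is not stated. Of the 10 neuron markers, 5 were called lower and 5 were not called, and their summed level was 6193 and 5086 CPM. The markers Map2, Dcx, Gad1 and Rbfox3 were higher in replicate 2 in plain CPM, and their log2 ratios were below 0 only after the TMM scaling. The part of neuron content in the Nnat result was not tested.

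In the Prader-Willi/Angelman cluster, Ndn dominated and the members went in different directions. Ndn (necdin, ENSMUSG00000033585), a MAGE-family growth suppressor of neurons, had 1152 and 1687 footprints, at 617 and 321 CPM, with a mean of 469 ± 210. Its log2 ratio was -1.07 (-1.18 to -0.96, adjusted p = 6.41e-76), the lowest of the 28 tested members. Its relative Magel2, which acts with ubiquitin ligases in endosomal sorting, had 34 and 60 footprints at 18.2 and 11.4 CPM, and its ratio of -0.77 did not pass the threshold (adjusted p = 0.0615). Mkrn3, a RING finger protein that restrains the onset of puberty, had 83 and 163 footprints at 44.5 and 31.0 CPM and was lower in replicate 2 (-0.64, adjusted p = 0.0115). Peg12, related to the Frat inhibitors of GSK3, had 13 and 18 footprints at 6.96 and 3.42 CPM, with a ratio of -1.04 that did not pass (adjusted p = 0.140). All 4 of these paternally active genes had ratios below 0.

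Ube3a (ENSMUSG00000025326) is the ubiquitin ligase lost in Angelman syndrome and is active from the mother's copy in neurons. It had 270 and 1114 footprints, at 145 and 212 CPM, with a mean of 178 ± 47.4. It was higher in replicate 2, with a log2 ratio of 0.42 (0.23 to 0.62, adjusted p = 0.000177). Per kilobase of transcript, Ube3a stood at 0.0849 of Ndn in replicate 1 and at 0.239 in replicate 2. Markers of the hypothalamus, where Ndn and Magel2 are strongly expressed, summed to 93.2 and 70.5 CPM, with all 7 found. Otp and Hcrt were called lower in replicate 2, Avp, Pmch and Oxt were tested and not called, and Agrp (1.07 and 2.85 CPM) and Sim1 (1.07 and 1.71 CPM) were too shallow to test. Pituitary markers summed to 14.5 and 3.04 CPM, with Gh at 15 and 0 footprints, Prl and Tshb at 0 in both libraries and none of the 7 deep enough to test. The part of tissue content in the Ndn result was not tested.

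The growth factor axis was carried by Igf2. Igf2 (insulin-like growth factor 2, ENSMUSG00000048583), a fetal growth factor, had 736 and 1807 footprints at 394 and 343 CPM, with a mean of 369 ± 35.9. It was slightly lower in replicate 2 (-0.32, -0.45 to -0.20, adjusted p = 9.29e-06). H19, the non-coding RNA that shares its control region, had 2 and 5 footprints at 1.07 and 0.95 CPM, near the limit of detection. Per kilobase of transcript, Igf2 carried 231 and 227 times the footprints of H19, a ratio that rests on those few H19 counts. Igf2r, the receptor that clears IGF2 from the cell surface, had 109 and 335 footprints at 58.4 and 63.7 CPM, a log2 ratio of 0.00 (-0.32 to 0.32) that did not pass. Airn, the non-coding RNA read across Igf2r from the other strand, had 4 and 1 footprints at 2.14 and 0.190 CPM. The RefSeq spans of Igf2r and Airn overlap by 28396 bases, and 5 footprints in all leave Airn without a usable difference between the libraries.

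In brain, Igf2 is known from choroid plexus and meninges, and markers of both were present. The 6 choroid plexus markers summed to 648 and 348 CPM, of which Ttr held 582 and 277; Ttr was called lower in replicate 2 and the other 5 were not called. The 8 meningeal markers summed to 1367 and 1258 CPM, with 3 called lower. None of these 14 genes was at 0. Their part in the Igf2 difference was not tested.

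Of the other imprinted genes of growth control and their regulators, Cdkn1c, Grb10 and Plagl1 were well counted, while Phlda2 and Kcnq1ot1 had few footprints. Grb10, an adaptor that dampens insulin and IGF1 receptor signalling, had 186 and 606 footprints at 99.6 and 115 CPM (log2 ratio 0.08, adjusted p = 0.755). Cdkn1c (ENSMUSG00000037664), which encodes the cyclin-dependent kinase inhibitor p57, had 223 and 476 footprints at 119 and 90.5 CPM. It was lower in replicate 2 (-0.52, -0.76 to -0.29, adjusted p = 0.00018). Plagl1, a zinc finger transcription factor that regulates other imprinted genes, had 102 and 352 footprints at 54.6 and 66.9 CPM (0.16, adjusted p = 0.591). Phlda2, known as a restraint on placental growth, had 0 and 1 footprint, with an interval of 0 to 1.98 CPM in replicate 1. Kcnq1ot1, the long non-coding RNA that silences the Cdkn1c-Phlda2 domain, had 5 and 19 footprints at 2.68 and 3.61 CPM over an annotated length of 84395 nucleotides.

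Around these members, 21 genes of the IGF system were also examined, a list of receptors, binding proteins and signalling kinases that contains no member. Of the 20 tested, 1 was higher and 5 were lower in replicate 2, where 5.95% and 11.5% of all genes were, and the median log2 ratio was 0.06 against 0.01 over all genes. The most abundant were the binding proteins Igfbp2 at 258 CPM ± 69.6 and Igfbp5 at 251 ± 59.5, followed by the kinase subunit Pik3r1 at 218 ± 2.46, the kinase Akt1 at 136 ± 24.1 and Igfbp4 at 92.99 ± 16.2. Igfbp2, Igfbp5 and Igfbp4 were among those called lower, with log2 ratios of -0.68, -0.61 and -0.48. The rest called lower were Irs1 and Irs2. The binding proteins Igfbp3 (0.57) and Igfbp6 (0.11) had ratios above 0 and were not called.

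In the Peg3 cluster, Usp29 was called between the libraries and Peg3, with which it shares a start region, was not. Peg3 (ENSMUSG00000002265), a large zinc finger protein linked to maternal behaviour, had 445 and 1333 footprints at 238 and 253 CPM, with a mean of 246 ± 10.6. Its log2 ratio was -0.04 (-0.19 to 0.12) and did not pass. Usp29 (ENSMUSG00000051527), a deubiquitinating enzyme read from the plus strand of the window shown above, had 132 and 554 footprints at 70.7 and 105 CPM, and was higher in replicate 2 (0.45, 0.17 to 0.73, adjusted p = 0.0101). Per kilobase of transcript, Peg3 was 2.52 times Usp29 in replicate 1 and 1.80 times in replicate 2. Zim1, a maternally active zinc finger gene beside Peg3, had 21 and 39 footprints at 11.2 and 7.41 CPM (-0.69, adjusted p = 0.229). Whether the Peg3 and Usp29 ratios differ from each other was not tested.

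Chromosome 6 holds 3 of the clusters, and Mest was the most abundant gene of them. Mest (ENSMUSG00000051855), a membrane protein with a hydrolase fold, had 424 and 1103 footprints at 227 and 210 CPM, with a mean of 218 ± 12.4. It was lower in replicate 2 by a small amount (-0.24, adjusted p = 0.0265), and the call was lost with library totals. Its neighbour Copg2, a subunit of the COPI vesicle coat, had 113 and 483 footprints at 60.5 and 91.8 CPM, and was higher in replicate 2 (0.47, 0.18 to 0.78, adjusted p = 0.0117). The RefSeq spans of Mest and Copg2 share 913 bases on opposite strands. Nap1l5 (ENSMUSG00000055430), an intronless relative of nucleosome assembly proteins, had 391 and 666 footprints at 209 and 127 CPM. Its log2 ratio of -0.85 (-1.04 to -0.67, adjusted p = 2.77e-17) was the second lowest among the called members.

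Peg10, Sgce and Asb4 form the other chromosome 6 cluster. Peg10, a domesticated retrotransposon whose second reading frame is reached by ribosomal frameshifting, had 135 and 451 footprints at 72.3 and 85.7 CPM (0.12, adjusted p = 0.675). Sgce, the epsilon-sarcoglycan mutated in myoclonus-dystonia, had 83 and 259 footprints at 44.5 and 49.2 CPM (0.02, adjusted p = 1). Asb4, a maternally active SOCS box protein, had 28 and 53 footprints at 15.0 and 10.1 CPM (-0.67, adjusted p = 0.153). None of the 3 was called.

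The Dlk1-Dio3 cluster on chromosome 12 combined coding genes with footprint-bearing non-coding RNAs. Dlk1, a membrane protein related to Notch ligands, had 70 and 197 footprints at 37.5 and 37.4 CPM, a mean of 37.5 ± 0.0407. Meg3, the maternally active long non-coding RNA, had 96 and 233 footprints at 51.4 and 44.3 CPM. Rian, a further maternal non-coding RNA that hosts small nucleolar RNAs, had 59 and 169 footprints at 31.6 and 32.1 CPM. The log2 ratios of Dlk1, Meg3 and Rian were -0.13, -0.34 and -0.10, and none passed. Mirg had 1 and 4 footprints and Rtl1, a retrotransposon-derived gene needed in placenta, had 1 and 11. Dio3, the deiodinase that inactivates thyroid hormone, had 7 and 10. Meg3 and Rtl1 share 6830 bases of RefSeq span, and Rian and Rtl1 share 474.

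The remaining members are the sole members listed at their loci. Impact, a regulator that restrains the GCN2 kinase, had 176 and 388 footprints at 94.3 and 73.7 CPM and was lower in replicate 2 (-0.48, -0.74 to -0.22, adjusted p = 0.00364). Zdbf2, a large zinc finger gene linked to feeding in newborn mice, had 86 and 336 footprints at 46.1 and 63.9 CPM. Its ratio of 0.34 did not pass (adjusted p = 0.175), but it did with library totals (adjusted p = 0.0381). Trappc9, a subunit of a vesicle tethering complex, had 201 and 654 footprints at 108 and 124 CPM (0.08, adjusted p = 0.747).

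Levels of different genes can be compared per length. Footprint density is the CPM divided by the mean transcript length in kilobases, weighted by counts, and is given below in CPM per kilobase. The median density of the 28 coding members was 20.9 ± 1.01, against 13.1 over the 13317 coding genes tested, and 19 of the 28 were above that value. All 28 were used for these values, 3 of which were under the count minimum. Nnat, at 936 ± 245, was above 99.9% of coding genes, and Ndn, at 284 ± 127, above 98.5%. The Nnat density sums 10 transcripts, so its place above Ndn depends on that sum. Nnat-008, the densest Nnat transcript in replicate 1, had 192 and 141 CPM per kilobase. The only Ndn transcript had 374 and 194. Igf2 (132 ± 12.8), Mest (126 ± 7.12) and Nap1l5 (88.8 ± 31.0) were the other members in the top 10% of coding genes. At the other end, Peg12 (1.97 ± 0.949), Dio3 (1.61 ± 0.744), Rtl1 (0.207 ± 0.173) and Phlda2 (0.126 ± 0.178) were in the bottom 10%. The members therefore span most of the range of coding genes.

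For some pairs of neighbours, the order per length was not the order per library. Peg10 was above Sgce in CPM, by 1.63 and 1.74 times, but its density was 0.505 and 0.541 of that of Sgce. Per kilobase of longest coding sequence Peg10 was nearer to Sgce, at 0.766 and 0.820 of it. Meg3 was above Dlk1 in CPM, while the density of Dlk1 was 2.04 and 2.36 times that of Meg3. Meg3 was also above Rian in CPM, by 1.63 and 1.38 times, while its density was close to that of Rian, at 0.983 and 0.833 of it. These ratios rest on 96 and 233 footprints of Meg3 against 59 and 169 of Rian. Whether the densities of Meg3 and Rian differ was not tested. The ratios of Igf2 to Igf2r and of Ndn to Magel2 kept their order but changed in size with the length used. Igf2 exceeded its receptor Igf2r 6.75 and 5.39 times in CPM, 20.4 and 16.3 times per kilobase of transcript, and 87.4 and 69.8 times per kilobase of longest coding sequence. Ndn exceeded Magel2 95.6 and 79.3 times per kilobase of transcript, and 134 and 111 times per kilobase of coding sequence.

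**Figure D2:**
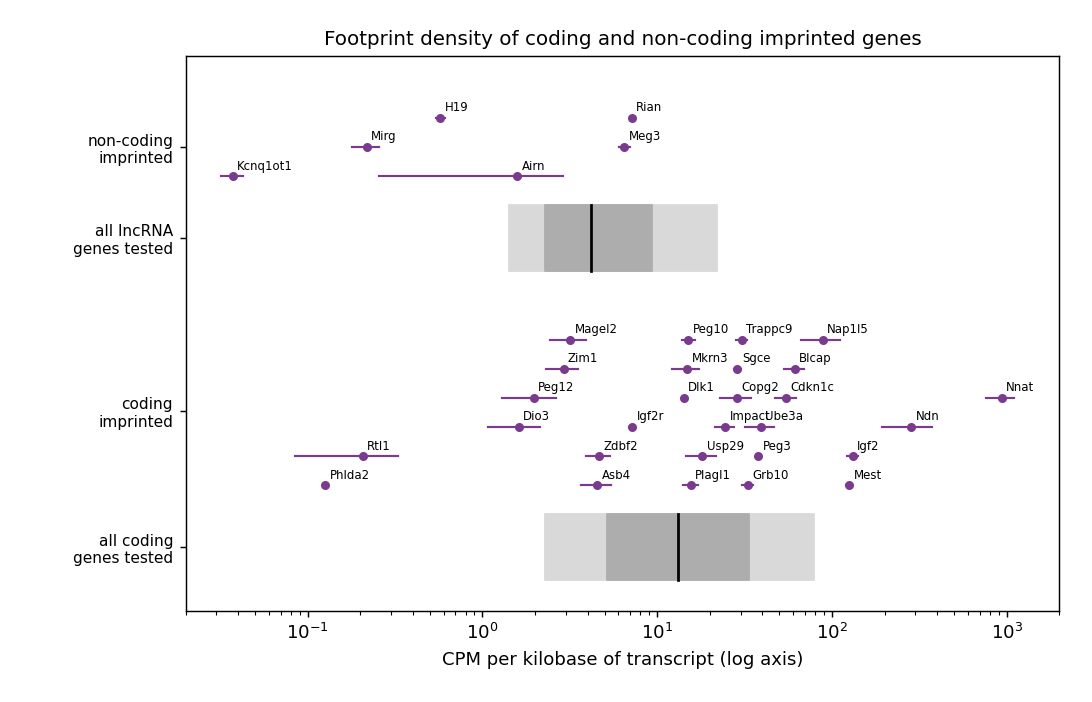
Footprint density (CPM per kilobase of transcript, log axis) of the 28 coding and 6 non-coding imprinted genes; points are means, lines join the replicates (for Phlda2, at 0 in replicate 1, the line is left out), and vertical stacking of points serves the labels alone. Bands give the 10th to 90th (light) and 25th to 75th (dark) percentiles, with the median as a bar, of the 13317 coding and 235 long non-coding genes tested; Nnat lies far to the right of the coding band and Kcnq1ot1 far to the left of the non-coding band.

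The 6 non-coding members had a median density of 1.08 ± 0.959, so the spread between the libraries was nearly as large as the value. In each library that median was the midpoint of Airn and H19. Airn, with 4 and 1 footprints, was at 2.90 and 0.257, while H19 was at 0.609 and 0.540. The densest were Rian (7.16 ± 0.0816) and Meg3 (6.495 ± 0.686), which were above 68.9% and 65.5% of the 235 long non-coding genes tested (median 4.16). Airn (1.58 ± 1.87), H19 (0.574 ± 0.0487) and Mirg (0.217 ± 0.0533) were under the count minimum that defines the tested genes. Kcnq1ot1 (0.0373 ± 0.00781) passed the minimum and was the lowest of the 235. Among 13 other long non-coding RNAs taken as a reference list, the densest were Pantr1 (76.4 ± 16.8), Tug1 (47.2 ± 14.3) and Gas5 (25.0 ± 3.25), all above Meg3 and Rian. The median of the 13 was 3.99, so Meg3 and Rian were above most of that list. Footprints on a non-coding RNA were counted as the table gives them, and whether they come from translation was not tested.

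Most footprints of the coding members were on transcripts annotated as protein coding. For 16 of the 28, every transcript in the table was of that kind. In the other 12 the share on protein-coding transcripts ran from 62.4% to 96.8%, and in all 12 the intervals of the libraries overlapped. Peg3 had the lowest share, 64.0% and 60.8%, with 35.7% ± 2.21 on 2 transcripts annotated as targets of nonsense-mediated decay. Copg2 had 71.3% ± 4.25, Mest 75.1% ± 0.176, Sgce 78.1% ± 1.44, Ube3a 78.5% ± 1.66 and Nnat 81.9% in each library. Transcripts of a gene share exons, so these shares describe where the counts were placed and not which isoform was translated.

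The placement of counts within genes is described here, and it does not reveal the rule by which shared footprints were placed. Igf2 had 7 coding transcripts of 376 to 4722 nucleotides with coding sequences of 310 to 576 nucleotides. The long transcripts Igf2-001, Igf2-002 and Igf2-003 held 128, 147 and 130 footprints in replicate 1, and the much shorter Igf2-004, at 650 nucleotides, held 85. Per kilobase of coding sequence the coefficient of variation over the 7 was 0.219 and 0.226, against 0.668 and 0.707 per kilobase of transcript. Smaller variation per coding length in both libraries was found for 5 of the 11 genes that had at least 3 protein-coding transcripts with 300 or more coding nucleotides and 100 or more footprints on them in all. Over those 11 genes the median coefficient was 0.373 and 0.250 per coding length, against 0.376 and 0.269 per transcript length. Igf2 is therefore not typical of them. Peg10-201, the transcript annotated with the long reading frame of 3018 nucleotides, had 33 and 142 footprints, and Peg10-001, with 1131 nucleotides of coding sequence, had 61 and 147. For Meg3 and Rian, the longest transcript held the most: Meg3-001 (14548 nucleotides) had 42 and 100 footprints, and Rian-007 (8089 nucleotides) had 30 and 66.

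**Figure D3:**
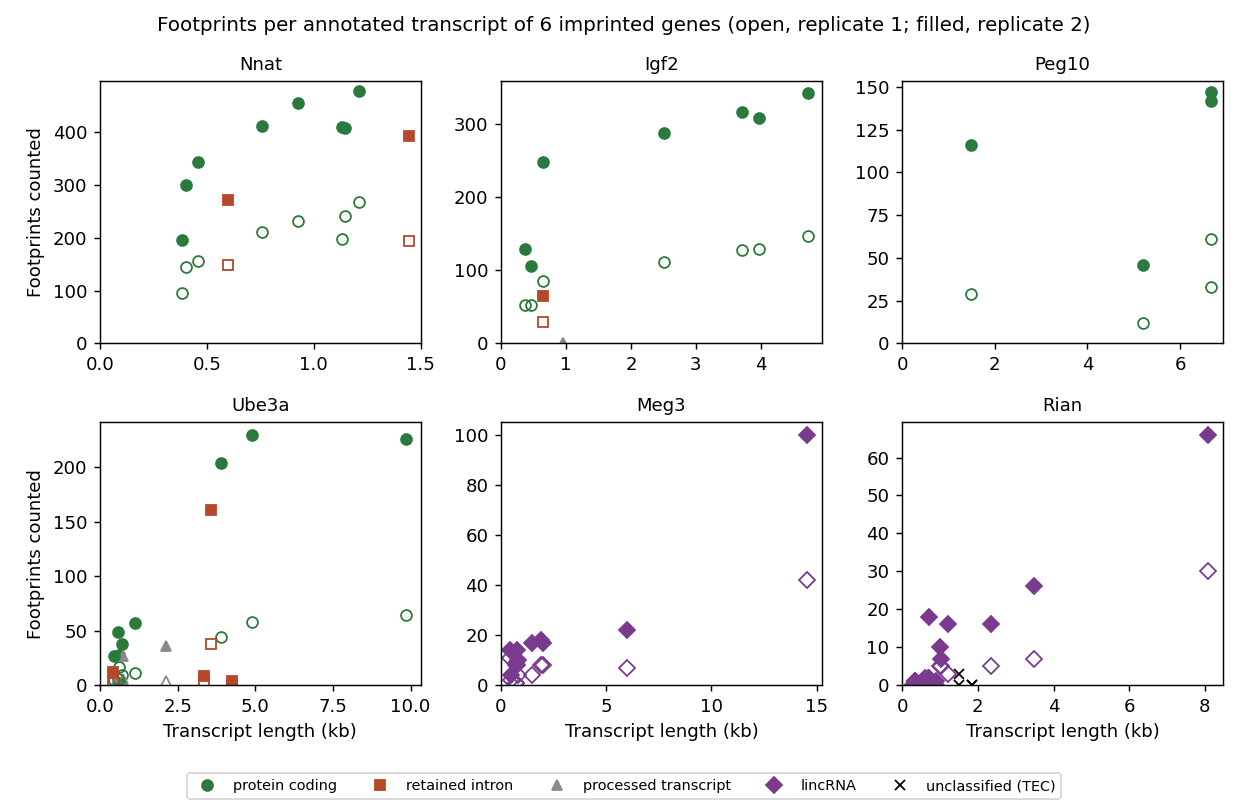
Footprints counted on each annotated transcript of Nnat, Igf2, Peg10, Ube3a, Meg3 and Rian against transcript length in kilobases; open symbols are replicate 1, filled symbols replicate 2, and shape gives the annotated class. The 3 longest Igf2 transcripts hold 128, 147 and 130 footprints in replicate 1, while for Meg3 the transcript of 14548 nucleotides holds 42 and 100, well above the others.

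The direction of the difference between the libraries went with coding length among the members, a pattern looked for after their values were seen and given as a description. The 25 coding members tested were divided at their median longest coding sequence, 1635 nucleotides. Of the 13 up to that length, 12 had log2 ratios below 0, 9 were called lower and 0 were called higher, with a median of -0.52. Of the 12 above it, 4 were below 0, 0 were called lower and 3 were called higher, with a median of 0.10. Magel2, at 3855 nucleotides of coding sequence and a ratio of -0.77, was the lowest of these longer genes. Over all coding genes tested the same division gave medians of -0.05 for the 7834 shorter and 0.06 for the 5483 longer genes. Called lower were 15.3% of the shorter and 9.48% of the longer genes, and called higher were 5.37% and 9.27%. Spearman's rho of coding length and log2 ratio was 0.593 over the 25 members and 0.161 over 13317 genes, which share the same pair of libraries and are not independent.

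Across 5 equal groups of genes ordered by coding length, from short to long, the median log2 ratio of all coding genes was -0.13, -0.03, 0.01, 0.04 and 0.08. The ratio also went with footprint density. Over all genes tested, its median was 0.08 in the sparsest of 20 bins and -0.26 in the densest. The ratio expected at their density was -0.26 for Nnat, Ndn and Igf2 and -0.16 for Mest and Nap1l5. It was -0.06 for Cdkn1c, -0.08 for Blcap, 0.05 for Mkrn3 and 0.04 for Impact. Whether length or density accounts for the pattern was not tested. When each gene was tested against the ratio expected at its coding length, 11 members were called, 10 of them among the 12, where 16.5% of all genes were called. Mest (adjusted p = 0.0707) and Blcap (0.095) lost the call and Magel2 (0.0315) gained it. Nnat, Ndn and Nap1l5 were among the 10. With the highest transcript alone standing for a gene, 6 members were called, all lower in replicate 2, where 9.41% of all genes were called. Those 6 were Ndn, Nnat, Nap1l5, Cdkn1c, Impact and Mkrn3.

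**Figure D4:**
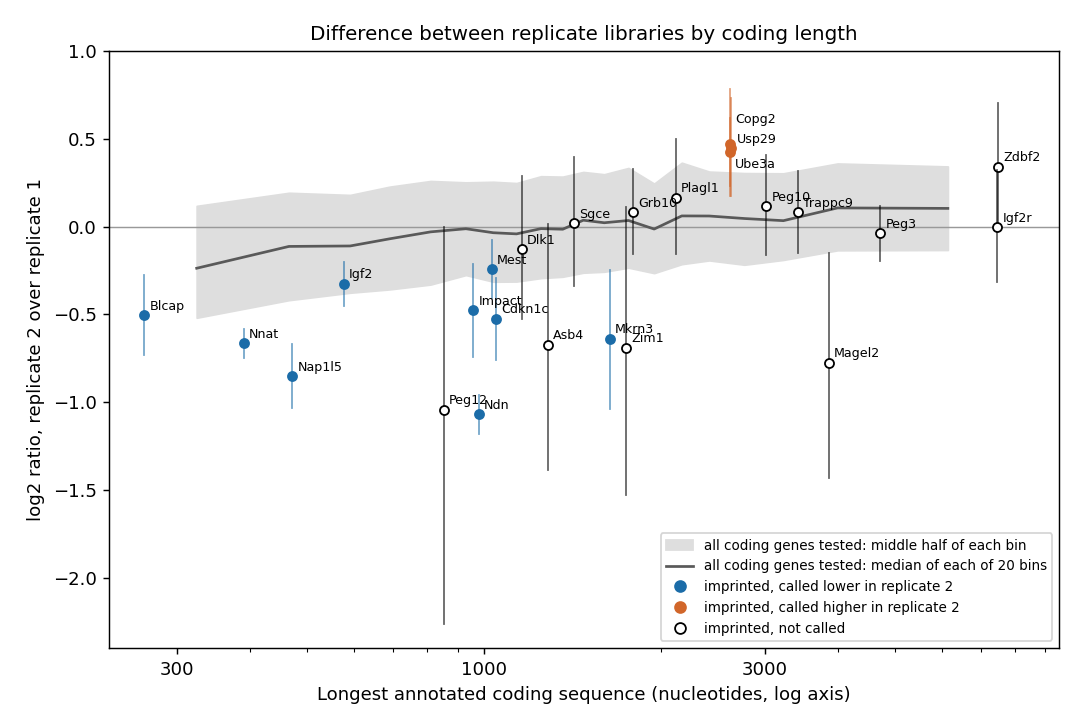
Log2 ratio of replicate 2 over replicate 1 against longest coding sequence (nucleotides, log axis) for the 25 coding imprinted genes tested; vertical lines are 95% intervals, blue marks genes called lower and orange genes called higher in replicate 2, and the grey line and band give the median and middle 50% of all coding genes in 20 bins of length. All 9 genes called lower have coding sequences of at most 1635 nucleotides, and Ndn lies lowest at -1.07.

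Further imprinted genes outside the 34 were examined as a list, of which 52 of 54 were in the table and 40 were tested. In replicate 2, 3 were higher and 6 were lower, where 5.95% and 11.5% of all genes were, and the median log2 ratio was -0.01. The most abundant were Gnas, which encodes the stimulatory G protein alpha subunit, at 2004 CPM ± 14.8, then Cd81 at 426 ± 84.1, Snrpn at 333 ± 47.4, H13 at 209 ± 24.2 and Inpp5f at 186 ± 8.07. Per kilobase of transcript, Gnas had 811 ± 5.97 CPM and Nnat 936 ± 245, a gap within the spread of Nnat. Both values rest on counts summed over the transcripts of the gene. Known partners and relatives of the members, 25 genes such as Notch receptors, deiodinase 2, coatomer subunits and cyclins, were all tested, with 3 higher and 4 lower and a median of -0.10, to be read against the same shares of all genes. The most abundant of these was Thra, a thyroid hormone receptor, at 528 CPM ± 51.1.

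The tissue label was checked with markers of brain cells, and no marker of neurons, astrocytes, oligodendrocytes, microglia or endothelium was at 0 in both libraries. Summed levels were 6193 and 5086 CPM for 10 neuron markers, 3600 and 3094 for 6 astrocyte markers, 809 and 1070 for 6 oligodendrocyte markers, 202 and 217 for 5 microglial markers and 247 and 228 for 5 endothelial markers. Of the oligodendrocyte markers 3 were called higher in replicate 2 and 1 lower. Of 4 liver markers, 2 were at 0 in both libraries and Ttr, also a choroid plexus gene, held nearly all of the sum of 582 and 277 CPM. The 5 skeletal muscle markers summed to 78.7 and 62.3 CPM, of which Acta1 held 74.99 and 50.2 and was called lower. Myh8 (1.07 and 5.70 CPM) and Myh3 (0.536 and 3.80 CPM) were not called. Whether differences in cell or region content between the dissections contribute to the members' ratios was not tested.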

How the data were processed

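The deposited values are raw whole-number counts of ribosome-protected fragments per transcript, in a single table with 1 column per replicate and annotated transcript, coding and untranslated lengths. Per the labels' protocols, pooled polysomal fractions were digested with RNase I and fragments of 25 to 35 nucleotides were made into libraries. The submitters' processing notes name Trimmomatic 0.36, Bowtie2 2.2.6, SAMtools and GRCm38.p4; how footprints shared by transcripts were placed and whether strand was used are not given in the sources used here.

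Counts were summed over the transcripts of a gene. TMM sizes (factors 0.957 and 1.04) and the exact test with common dispersion came from edgeR 4.0.16, size factors from DESeq2 1.42.0, both in R 4.3.3; the other steps used SciPy 1.17.1. The exact binomial test was tried on simulated counts with Poisson counting noise only. That cannot show how the test does where libraries differ by more than counting noise. No quasi-likelihood test was run, since 1 group leaves no contrast, and p-values measure differences between these libraries only. The prior in log2 ratios was 0.5 CPM. Alternatives were other library sizes, count minimums, priors, transcripts, lengths and expected ratios, and each replicate alone. Members and lists were chosen with earlier results of these data known, so their counts are descriptions. By rule all 34 members were named, with the 5 most abundant genes of the IGF and further imprinted lists. The 3 densest reference RNAs and the top gene of other lists were also named by rule. Marker genes named beside a result, and Igfbp3, Igfbp6, Irs1 and Irs2, were chosen after their values were seen. Sequences are from RefSeq (GRCm38.p6). PCR copies are not independent molecules.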

Additional observations from a re-analysis of the deposited data

How the results depend on the processing

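The 12 calls were kept with DESeq2 size factors, with count minimums of 1 and 50 and with priors of 0.1 and 5 CPM. Over all genes, 17.4% were called with DESeq2 size factors and with either prior. With count minimums of 1 and 50, 11.5% and 26.8% of all genes were called. Library totals kept 11 of the 12, losing Mest and gaining Zdbf2, where 19% of all genes were called. Protein-coding transcripts alone gave 10, losing Copg2 and Mest, where 15.5% of all genes were called. A ratio expected from footprint density gave 11, where 17.3% of all genes were called. That setting lost Igf2 (adjusted p = 0.534) and Mest (0.58) and gained Magel2 (0.0312). Highest transcripts gave 6 calls with 0 higher in replicate 2, where 9.41% of all genes were called and 1.65% were called higher. The member share was then 0.323% and the Nnat-Blcap share 0.0326% of the library. Ube3a, Usp29, Copg2, Igf2, Blcap and Mest lost the call. With edgeR's common dispersion, which is estimated from the same pair of libraries, 0 were called, 0 higher and 0 lower. In that setting 0.067% of all genes were called, and 2 members were at an unadjusted p under 0.05. No called ratio changed sign under any of these settings. Uncalled ratios near 0 did for Peg3, Sgce, Igf2r, Peg10, Rian and Trappc9.

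The median coding density was 17.3 on protein-coding transcripts, 16.4 with the longest transcript and 32.0 with the longest coding sequence as the length. These are not comparable with the 13.1 of all coding genes, which rests on the count-weighted transcript length. The replicates alone gave a median level of 53.0 to 63.8 CPM, a member share of 0.338% to 0.402%, a Nnat-Blcap share of 0.0793% to 0.114%, a median density of 20.1 to 21.6 for coding and 0.399 to 1.75 for non-coding members, and a median protein-coding share of 100% in each. The test of replicate 2 against replicate 1 needs both, so it was not run without either. No paired analysis was possible because the study holds 1 group. Depth limits Phlda2, Airn, H19, Mirg, Rtl1 and Dio3, which were not tested.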
